A study of Mus musculus with 6 samples.

Results

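The genes described here are 34 genes of the amino acid response and its surroundings: 18 cytosolic aminoacyl-tRNA synthetases, the kinase Eif2ak4, 3 transcription factors of the response (Atf4, Atf5 and Ddit3), 3 of its targets (Asns, Chac1 and Trib3), 3 serine synthesis enzymes, 4 folate one-carbon enzymes, and the transsulfuration enzymes Cth and Cbs. They were taken by symbol from the 53278 genes of the deposited table. No measured value entered this rule, but the list was drawn up with earlier results of these data known. All 34 were in the table, and 33 of them passed the filter on low counts that left 14361 genes to test. Cbs, the cystathionine synthase, had 0 counts in all 6 libraries. With 3 counts taken as the upper limit for a count of 0, that limit was between 0.0848 and 0.097 CPM (counts scaled to library size) in a library.

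The libraries came from group 2 innate lymphoid cells (ILC2s), tissue-resident lymphocytes without antigen receptors, sorted from the visceral adipose tissue of 8-week-old C57BL/6 mice. Every mouse had received 3 intraperitoneal injections of 1 µg IL-33, the alarmin that activates these cells, and the sorted cells were then held in IL-2 and IL-7 at 10 ng/mL each. Of the 6 libraries, 3 were from cells given DTA-1 at 5 µg/mL, a rat antibody that stimulates the costimulatory receptor GITR, and 3 were from cells given its isotype control. Per the labels the culture lasted 48 h, although the study's text also names a shorter time. Both groups therefore share the IL-33 activation and both cytokines, the labels name no group deprived of an amino acid, and the RNA is that of a short culture and not of the tissue. The comparison asks what GITR engagement adds to cells that were already activated. The labels do not say whether the 3 libraries of a group came from separate mice or cultures, so the p-values measure only the spread between these libraries, which may be technical.

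The aminoacyl-tRNA synthetases each join 1 kind of amino acid to its tRNA, and without them no codon can be read. When an amino acid runs short, uncharged tRNA accumulates and activates the kinase GCN2, encoded by Eif2ak4, which phosphorylates eIF2; general protein synthesis slows while the Atf4 message is translated more, and the ATF4 protein then raises the genes of amino acid uptake and synthesis, of tRNA charging, of serine synthesis and of the mitochondrial folate pathway. Lymphocytes that are activated and begin to grow are known to raise many of these genes. Because ATF4 is set mainly by translation, its messenger RNA is a poor measure of its protein, and the transcripts of its targets are the usual readout.

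Values are expected counts, scaled to CPM by library size and the trimmed mean of M-values, and are called normalized counts here. A fold change is DTA-1 over isotype control on the log2 scale, from edgeR's fit with its default prior count. Totals ran from 30569351 to 35131329 counts per library, and members were covered by between 159 and 16094 counts per library, Cth and Cbs aside. The library labelled DTA-1 replicate 1 stood apart from its group. In chi-square per degree of freedom over genes it lay 9.64 to 11.3 from the isotype control libraries, which lay 11.4 to 17 from each other, and 27.1 and 28.2 from the other DTA-1 libraries. Results are therefore also given without it. All 13 markers of ILC2s were at 1 CPM or more in the mean. The summed CPM of 7 T cell markers was 201 to 221 in isotype control and 209 to 220 in DTA-1. It was carried by Lat, at 158.5 to 173.9 CPM over the 6 libraries, and Cd3g, at 36.2 to 48.6. Of the 7, 3 were at 1 CPM or more in the mean, and Cd8a was at 0 in every library.

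No gene of the module was called. A call was an adjusted p under 0.05 in edgeR's quasi-likelihood test, Benjamini-Hochberg adjusted over all tested genes, with at least 1.5-fold. By this rule 0 of 33 members passed, against 0% of the 14361 genes. The smallest adjusted p of a member was 0.709, and 0 of 33 members had an unadjusted p under 0.05, against 7.22% of all genes. The DESeq2 Wald test and limma-trend likewise called 0 members and gave 0 members an unadjusted p under 0.05. Over all genes, 4.88% had such a p in the DESeq2 Wald test and 7.48% in limma-trend. The DESeq2 Wald test called 25 of 25251 genes, and limma-trend called 0 of 14361. Without DTA-1 replicate 1 edgeR still called 0 members, against 0.744% of 14911 genes. In that fit Ddit3, Trib3, Vars and Mars (4 members, 12.1%) had an unadjusted p under 0.05, against 14% of all genes, a share near the background.

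In 6 of the 33 members (18.2%) the groups did not overlap in normalized counts, against 11.3% of all genes. Every DTA-1 library was higher for Dars, Kars, Mars, Qars and Chac1, against a background of 5.29%, and every DTA-1 library was lower for Psph, against 6.04%. Leaving out 1 library makes such a gap easier to meet: without DTA-1 replicate 1 it was met by 10 members (30.3%) in the higher direction, against 15.6% of all genes, and by 4 (12.1%) in the lower, against 16.1%. With 3 libraries against 3 an exact permutation test cannot give a p under 0.1, so no such test was run.

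The size of change that these libraries leave possible is narrow for most members. The median standard error of a member's log2 fold change was 0.0677, against 0.144 over all tested genes. The 95% confidence interval lay within 1.5-fold in both directions for 31 of 33 members, the exceptions being Atf5 and Cth, and did so for 58.9% of all tested genes. Without DTA-1 replicate 1 this held for 30 of 33 members. The module as a whole lay at the centre of the distribution, with 20 members higher and 13 lower in DTA-1 and a median log2 fold change of 0.02, against -0.01 over all tested genes, of which 51.9% were lower. With total counts in place of the trimmed mean the split became 15 higher and 18 lower, the median of the members was -0.02 and 60.5% of all genes were lower.

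**Figure D1:**
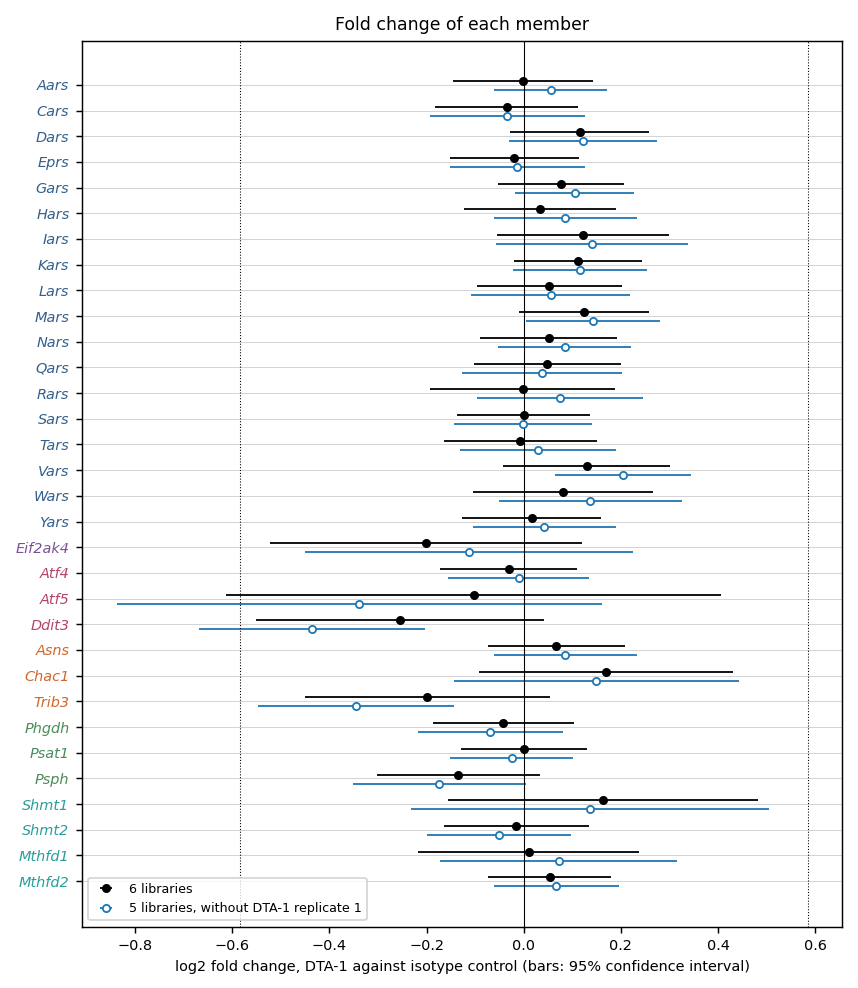
Log2 fold change (DTA-1 over isotype control) of 32 members with its 95% confidence interval, with the names coloured by role; Cth, whose interval runs from -0.78 to 1.81, and Cbs, which had no counts, are left out. Each member is drawn for all 6 libraries and again without DTA-1 replicate 1. Every 6-library interval drawn crosses 0, and only that of Atf5 reaches past 1.5-fold. Without DTA-1 replicate 1 the intervals of Ddit3, Trib3, Vars and Mars do not cross 0. In that fit those of Ddit3 and Atf5 reach past 1.5-fold.

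The members differ far more from each other than between the groups. Per kilobase of messenger RNA, the isotype control level ran from 171.5 ± 10.97 normalized counts per kb (SD, n = 3) for Phgdh to 0.724 ± 0.515 for Cth, and Cbs was at 0. Phgdh stood 39.4-fold above Eif2ak4 on this scale. After Phgdh came Shmt2 at 150.4 ± 9.62, Gars at 146.5 ± 3.79 and Atf4 at 146 ± 7.59 normalized counts per kb, and the ranges of these 3 overlapped across the isotype control libraries. At the low end were Chac1 at 10.5 ± 0.560, Shmt1 at 8.03 ± 1.35, Eif2ak4 at 4.35 ± 0.714 and Atf5 at 3.82 ± 0.552 normalized counts per kb. Among the 18 synthetases the mean levels spanned 5.09-fold, from 28.8 ± 0.673 for Qars to 146.5 ± 3.79 for Gars, with a median of 61.8 normalized counts per kb. Of the 32 pairs of neighbours in the order of the 33 detected members, 20 overlapped in their isotype control ranges, so the exact order within the middle of the list is not fixed by 3 libraries.

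**Figure D2:**
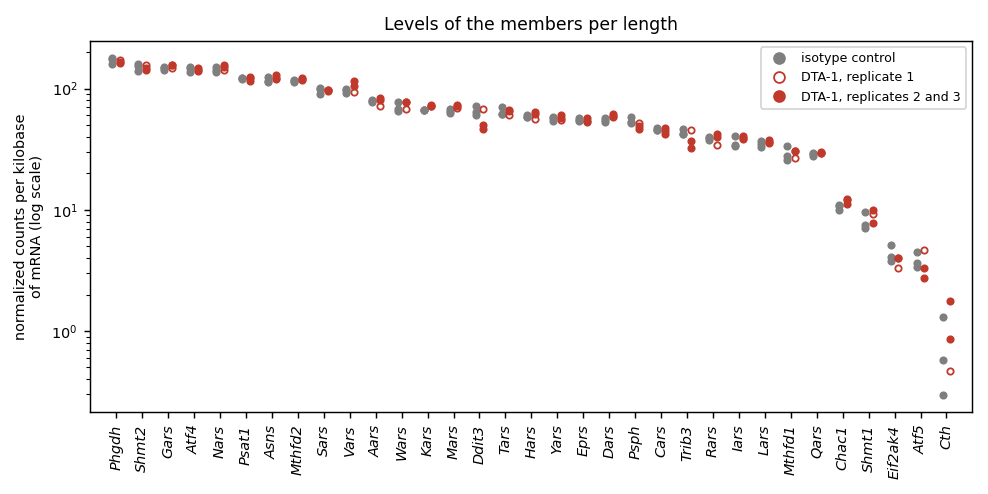
Level of the 33 detected members in normalized counts per kilobase of messenger RNA on a log axis, ordered by the isotype control mean, with each isotype control and DTA-1 library as a point. The points of both groups lie together for each gene while the genes span from 0.724 to 171.5.

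Of the 18 cytosolic synthetases, 13 were higher and 5 lower in DTA-1, with a median log2 fold change of 0.05 and a range from -0.03 to 0.13. The size of this small excess depends on the scaling, not its direction: total counts gave 10 higher and 8 lower with a median of 0.01, and DESeq2 size factors gave 15 and 3. No interval of the 18 reached 1.5-fold, the widest bounds being log2 fold changes of -0.19 and 0.30. The excess was also uneven over the libraries. In DTA-1 replicate 2, 17 of the 18 lay above the isotype control mean, with a median deviation of 0.10 on the log2 scale, and in DTA-1 replicate 3, 16 did, with a median of 0.08. In DTA-1 replicate 1 only 8 did, with a median of -0.02, and the isotype control libraries had medians of -0.00334, 0.03 and -0.01. The DTA-1 libraries thus did not move as 1 group.

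Of the synthetases, 8 sit in the multi-synthetase complex, the assembly that holds a set of these enzymes together in the cytosol; 6 of these were higher and 2 lower, with a median log2 fold change of 0.08. The remaining 10 lie outside this complex, of which 7 were higher and 3 lower, with a median of 0.02. This grouping is the textbook one and was added after the values were known, so it is a description.

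Mars, which charges methionine tRNA and so also serves every initiation codon, had the smallest unadjusted p of the module. It read 194, 200.04 and 186 normalized counts in isotype control replicates 1 to 3 and 205, 211 and 216 in DTA-1 replicates 1 to 3. All 3 DTA-1 libraries lay above all 3 isotype control libraries, with a log2 fold change of 0.12 ± 0.0606 (SE, adjusted p = 0.709 in edgeR). The gene lies at chromosome 10, 127296221 to 127311786 (GRCm38), where its end shares 68 bases with Ddit3 on the opposite strand, and since the strand setting of the counting is not given in the sources used here, reads of these bases cannot be told apart between both genes.

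Kars, the lysine enzyme of both cytosol and mitochondria, read 133, 134 and 135 normalized counts under the isotype and 144, 144 and 147 under DTA-1. Its 2 groups did not overlap and its libraries were tight on both sides. The fit gave a log2 fold change of 0.11 ± 0.0598 (SE, adjusted p = 0.733 in edgeR). Dars, the aspartate enzyme, read 124, 120.2 and 115 normalized counts in isotype control against 128, 133 and 127 in DTA-1. It too was higher in each DTA-1 library, with a log2 fold change of 0.12 ± 0.0647 (SE, adjusted p = 0.738 in edgeR). Qars, the glutamine enzyme, read 80.97, 82.3 and 78.5 against 84.6, 82.4 and 83.1 normalized counts. Its DTA-1 libraries were also all above the isotype control libraries, but the nearest libraries of the groups read 82.3 and 82.4, with a log2 fold change of 0.05 ± 0.0687 (SE, adjusted p = 0.914 in edgeR).

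Iars, the isoleucine enzyme, read 148, 180.00 and 151 normalized counts under the isotype and 169.5, 179.6 and 173 under DTA-1. Isotype control replicate 2 was the highest of the 6 libraries, just above the DTA-1 range, and the fit gave a log2 fold change of 0.12 ± 0.0804 (SE, adjusted p = 0.769 in edgeR). Vars, the valine enzyme, read 402, 383 and 411 normalized counts under the isotype and 389, 437 and 482 under DTA-1. Only DTA-1 replicates 2 and 3 lay above the isotype control range, and the fit gave a log2 fold change of 0.13 ± 0.0785 (SE, adjusted p = 0.75 in edgeR). With DTA-1 replicate 1 left out, Vars stood at a log2 fold change of 0.20 and Mars at 0.14, with adjusted p values of 0.174 and 0.335 in edgeR. With 1 library left out at a time, Vars ran from 0.05 (without DTA-1 replicate 3) to 0.20 and Mars from 0.10 to 0.15.

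The remaining members of the complex had overlapping groups. Lars, the leucine enzyme, read 139.7, 148 and 132 under the isotype and 144, 150.5 and 141 normalized counts under DTA-1. Rars, the arginine enzyme, read 78.8, 83.1 and 83.7 against 72.8, 89.1 and 83.4 normalized counts. Its lowest and its highest library were both DTA-1. Eprs, which carries both the glutamate and the proline enzyme in 1 chain, read 267, 283 and 272 against 268, 281 and 261 normalized counts. Their log2 fold changes were 0.05 for Lars, -0.0023 for Rars and -0.02 for Eprs, and in all 3 the groups overlapped.

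Among the enzymes outside the complex, Gars, the glycine enzyme, whose mean level per length was the highest of the synthetases but overlapped that of Nars across the isotype control libraries, read 350.1, 339 and 357 normalized counts under the isotype and 353, 375 and 375 under DTA-1. Aars, the alanine enzyme, read 451, 459 and 448 under the isotype and 416, 464 and 477 normalized counts under DTA-1. Aars was lowest in DTA-1 replicate 1 and highest in the other DTA-1 libraries, so its group means were alike while its DTA-1 libraries differed. Nars, the asparagine enzyme, read 394, 415 and 375 against 390.2, 411 and 426 normalized counts. Wars, the tryptophan enzyme, known for its induction by interferon, read 124, 142 and 118 against 125, 141 and 141 normalized counts. In both, the ranges of the groups overlapped. Hars, the histidine enzyme, whose transcript region shares 198 bases with Hars2 on the opposite strand, read 120.2, 115 and 117 under the isotype and 111, 127 and 122 normalized counts under DTA-1. Sars, the serine enzyme, read 355, 324 and 361 against 347, 349.8 and 343 normalized counts. The same held for Hars and Sars. Tars, the threonine enzyme, read 245, 282 and 249 against 245, 264 and 265 normalized counts. Yars, the tyrosine enzyme, read 158, 168 and 171 against 161, 166 and 175, and Cars, the cysteine enzyme, read 146, 152 and 148 against 145, 137 and 154 normalized counts. The groups of all 9 overlapped, and their log2 fold changes lay between -0.03 for Cars and 0.08 for Wars.

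**Figure D3:**
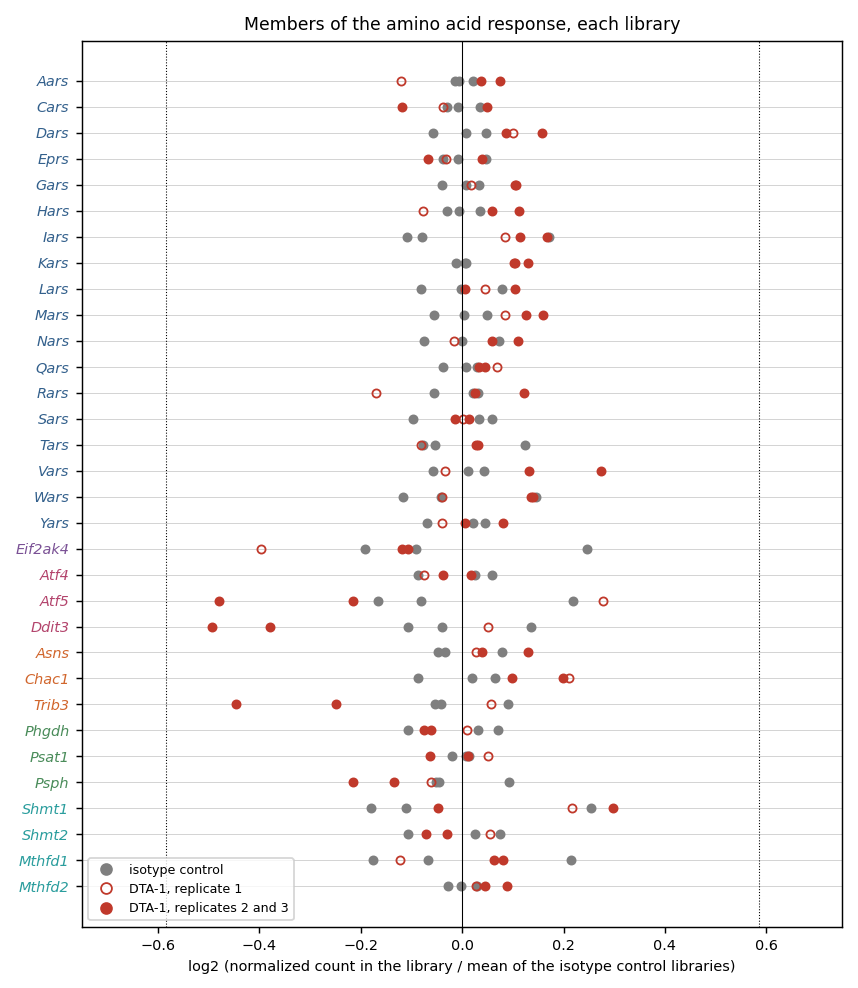
Log2 deviation of each of 32 members (rows, names coloured by role) from its isotype control mean, with each of the 6 libraries as a point. Cth and Cbs are left out. Most synthetase points are above 0 in DTA-1 replicates 2 and 3 and mixed in DTA-1 replicate 1. Ddit3 and Trib3 are low in DTA-1 replicates 2 and 3 alone.

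Eif2ak4, the sensor of uncharged tRNA, is a scarce message in these cells. It read 21.3, 26.9 and 19.8 normalized counts under the isotype and 17.2, 20.9 and 21.05 under DTA-1. The groups overlapped, the lowest library being DTA-1 replicate 1 and the highest isotype control replicate 2. Its log2 fold change was -0.20 with a 95% confidence interval from -0.52 to 0.12, wider than that of the abundant synthetases but still within 1.5-fold. The value rested on single libraries, being -0.06 without isotype control replicate 2 and -0.11 without DTA-1 replicate 1.

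All 3 response transcription factors were lower in DTA-1 under the trimmed mean, size factor and total count scalings, and none of the 3 differences passed the test. Atf4, the factor that gives the response its shape, read 262, 237 and 256 normalized counts under the isotype and 239, 255 and 245 under DTA-1. Its log2 fold change was -0.03 with a 95% confidence interval from -0.17 to 0.11, and isotype control replicate 2 was the lowest of the 6 libraries. Leaving out isotype control replicate 1 brought it to 0.00298. Atf5, a relative of Atf4 whose message is read by a like mechanism, read 8.08, 6.56 and 6.18 normalized counts under the isotype and 8.41, 5.98 and 4.98 under DTA-1. Atf5 was the most uncertain of the 3, with an interval from -0.61 to 0.41 on the log2 scale. As in Ddit3 and Trib3, described next, its DTA-1 replicates 2 and 3 lay below every other library. Its log2 fold change of -0.10 became -0.34 without DTA-1 replicate 1, 0.02 without isotype control replicate 1 and 0.05 without DTA-1 replicate 3. Atf5 shares 571 bases with Nup62 on the opposite strand, a gene with a mean of 5118 counts against 223 for Atf5, so reads of those bases cannot be assigned without strand.

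Ddit3, which encodes the stress factor CHOP, showed a split within the DTA-1 group. It read 63.9, 53.9 and 56.6 normalized counts under the isotype and 60.2, 41.3 and 44.7 under DTA-1. DTA-1 replicates 2 and 3 lay below every other library, and DTA-1 replicate 1 lay inside the isotype control range. Over all 6 libraries the fit gave a log2 fold change of -0.26 ± 0.135 (SE, adjusted p = 0.732 in edgeR). Without DTA-1 replicate 1 it was -0.44 ± 0.103 (SE), with an adjusted p of 0.0818 in edgeR, the smallest of any member in that fit. Without DTA-1 replicate 2 it was -0.14 and without DTA-1 replicate 3 it was -0.20, with adjusted p values of 0.997 and 0.999 in edgeR. The gene lies at chromosome 10, 127290774 to 127296288, and the 68 bases it shares with Mars are named above.

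Among the targets, Trib3 showed the same split. Trib3, a pseudokinase that restrains the response, read 94.6, 85.6 and 86.3 normalized counts under the isotype and 92.3, 65.2 and 74.7 under DTA-1. DTA-1 replicates 2 and 3 were again the lowest libraries, and DTA-1 replicate 1 fell within the isotype control range. The fit gave a log2 fold change of -0.20 ± 0.115 (SE, adjusted p = 0.74 in edgeR), and without DTA-1 replicate 1 it was -0.35 with an adjusted p of 0.112 in edgeR. Without DTA-1 replicate 2 it was -0.08 (adjusted p = 0.997 in edgeR). Trib3 lies at chromosome 2, 152337422 to 152344032.

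Many ILC2 markers followed the split of Ddit3 and Trib3. Il5 read 5627 normalized counts in DTA-1 replicate 1, 9695 and 8899 in replicates 2 and 3, and 5063 to 5493 in isotype control. Areg was also higher in replicates 2 and 3 (334 and 317, against 188 in replicate 1). Icos (98.98 and 98.4, against 156.5) and Kit (75.8 and 80.8, against 128) were lower there. Il2ra (2741 and 2810, against 2243), Il13 (108.2 and 88.8, against 73.7) and Id2 (2134 and 1995, against 1765) were higher in replicates 2 and 3. Il1rl1 (1022 in both, against 1286) and Gata3 (1525 and 1607, against 1678) were lower there. In each of these genes, replicates 2 and 3 lay outside the isotype control range. The remaining ILC2 markers, Ptprc, Il7r, Rora and Klrg1, did not follow the split. Markers of other cell types also varied between the libraries, in part along the same split. The summed CPM of 5 mast cell markers was 15.1 to 21 in isotype control, 15.7 in DTA-1 replicate 1 and up to 44.4 in the other DTA-1 libraries, with 4 of the 5 at 1 CPM or more. The sum of 4 endothelial markers was 18.4 to 24.4 in isotype control and 10.6 to 18.3 in DTA-1, 18.3 of it in replicate 1. It was carried by 1 of the 4, Pecam1, and Cdh5 was at 0 in every library. The sum of 6 fibroblast markers was 1.8 to 7.71 in isotype control and 0.288 to 3.98 in DTA-1, and did not follow the split, with replicate 1 at 0.873. Whether either set of markers bears on the values of Ddit3 and Trib3 was not tested. In a bulk library fewer cells of a type and less RNA per cell cannot be told apart.

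The other targets did not show this split. Chac1, which degrades glutathione, read 18.00, 17.4 and 16.2 normalized counts under the isotype and 19.9, 19.8 and 18.4 under DTA-1. All 3 DTA-1 libraries were higher, and the fit gave a log2 fold change of 0.17 ± 0.119 (SE, adjusted p = 0.785 in edgeR). Asns, the asparagine synthetase, read 252, 233 and 230.4 normalized counts under the isotype and 243, 245 and 261 under DTA-1. The groups overlapped, with a log2 fold change of 0.07 and a 95% confidence interval from -0.07 to 0.21. The 3 targets thus did not share a direction, with Trib3 below and Chac1 and Asns above the isotype control mean.

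**Figure D4:**
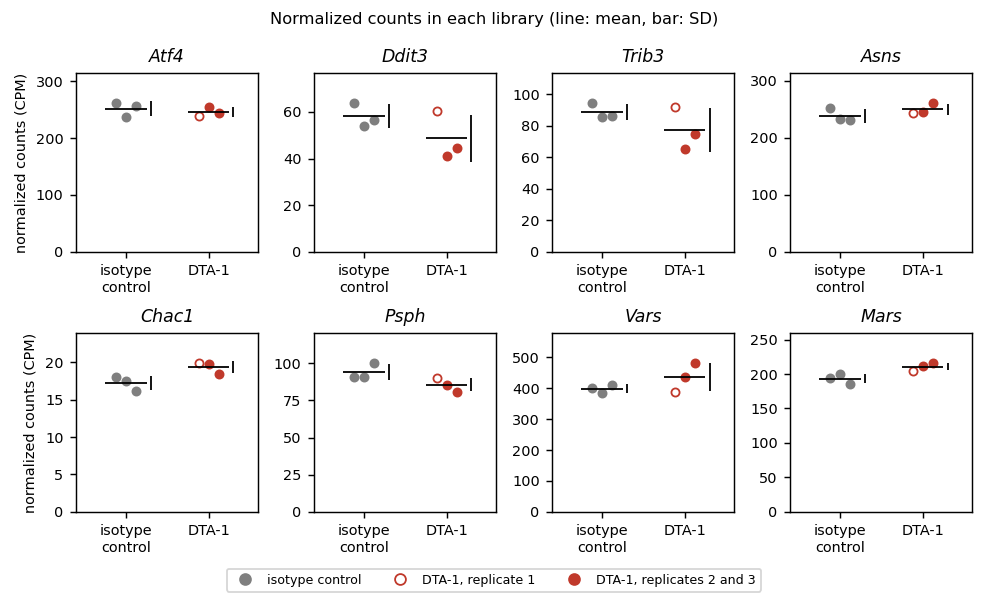
Normalized counts (CPM) of Atf4, Ddit3, Trib3, Asns, Chac1, Psph, Vars and Mars in each library, with the group mean as a line and the SD as an error bar. Ddit3 and Trib3 are low in the same DTA-1 libraries, replicates 2 and 3, while Mars is higher in all 3 DTA-1 libraries and Psph lower.

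The upstream stretches of Asns and Chac1 are shown because these targets differ in level and share the letters that ATF4 with C/EBP proteins is known to bind. The letters TGATGNAA, with N any base, were searched on both strands of the 300 bases around each start (250 before and 50 after) in RefSeq's promoters on GRCm38.p6. They occurred for 8 of the 26 members with a promoter entry (30.8%) and for 4.51% of 27025 genes; Cars, Hars, Lars, Nars, Rars, Vars, Wars and Cth have no entry there. The 250 bases before the start, 5′ to 3′ on the gene's own strand with the match in capitals, were for Chac1 chr2:119350992-119351241 on the plus strand and for Asns chr6:7693210-7693459 on the minus strand.
Chac1: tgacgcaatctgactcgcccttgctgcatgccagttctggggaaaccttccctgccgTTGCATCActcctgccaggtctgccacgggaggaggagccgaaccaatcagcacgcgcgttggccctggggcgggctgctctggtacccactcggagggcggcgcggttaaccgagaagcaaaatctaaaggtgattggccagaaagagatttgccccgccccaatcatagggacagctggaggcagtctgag
Asns: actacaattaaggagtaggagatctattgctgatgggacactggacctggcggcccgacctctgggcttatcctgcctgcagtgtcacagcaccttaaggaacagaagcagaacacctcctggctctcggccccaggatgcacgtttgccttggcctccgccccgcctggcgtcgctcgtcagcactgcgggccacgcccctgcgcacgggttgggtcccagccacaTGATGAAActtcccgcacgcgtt

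Of the other members with the match, 5 are given by the 30 bases around it, since 4 of them are synthetases that share it. The match is on the strand shown or, where the capitals read TTNCATCA, on its complement.
Gars: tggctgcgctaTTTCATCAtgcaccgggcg
Iars: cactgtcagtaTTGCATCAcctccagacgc
Tars: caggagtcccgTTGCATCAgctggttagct
Yars: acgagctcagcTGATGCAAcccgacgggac
Trib3: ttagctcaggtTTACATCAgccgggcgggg
These stretches lie at chr6:55037960-55037989 on the plus strand for Gars, chr13:49682126-49682155 on the plus strand for Iars, chr15:11399655-11399684 on the minus strand for Tars, chr4:129189895-129189924 on the plus strand for Yars, and chr2:152344028-152344057 on the minus strand for Trib3. Of the 8 genes, 5 were higher and 3 lower in DTA-1, with log2 fold changes from -0.20 to 0.17 and a median of 0.04. Trib3, with the lowest log2 fold change of the 8, and Chac1, with the highest, both carry the letters, though at different places. The match begins at base 15 of the transcript in Trib3 and 193 bases before the start in Chac1. Of the 8 genes, 0 were called. A match is a run of letters and not a measured binding site.

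None of the 3 serine synthesis enzymes passed the test. Phgdh, which diverts 3-phosphoglycerate from glycolysis into serine, read 341, 332 and 301 normalized counts under the isotype and 327, 311 and 308 under DTA-1. Psat1, the transaminase of the second step, read 319, 317 and 312 against 327, 319 and 302 normalized counts. Their log2 fold changes were -0.04 and 0.000996, with the groups overlapping in both. Psph, the phosphatase of the last step, read 90.8, 91.1 and 100.3 normalized counts under the isotype and 90.1, 85.7 and 81.05 under DTA-1. Psph was the 1 member with every DTA-1 library below every isotype control library, and the fit gave a log2 fold change of -0.13 ± 0.0763 (SE, adjusted p = 0.738 in edgeR). Psph lies at chromosome 5, 129765558 to 129787449 and shares 452 bases with Cct6a on the opposite strand, a gene with a mean of 10360 counts against 2998 for Psph, so reads of those bases cannot be told apart without strand.

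Of the folate one-carbon enzymes, which pass the carbon of serine on to purines and thymidylate, the mitochondrial pair dominated. Shmt2, the mitochondrial serine hydroxymethyltransferase, read 350.3, 319.8 and 363 normalized counts under the isotype and 357, 327 and 337 under DTA-1. Shmt1, its cytosolic counterpart, read 21.2, 27.3 and 20.2 against 26.6, 22.2 and 28.2 normalized counts. Per kilobase of message Shmt2 was 18.7-fold above Shmt1 in isotype control and 16.6-fold above it in DTA-1. Mthfd2, the mitochondrial dehydrogenase and cyclohydrolase, read 239.98, 236 and 245 normalized counts under the isotype and 245, 248 and 256 under DTA-1. Mthfd1, the cytosolic enzyme that joins formate to folate, read 89.6, 109 and 83.2 against 86.3, 99.3 and 98.2 normalized counts. Mthfd2 was 3.98-fold above Mthfd1 per kilobase in isotype control and 4.1-fold in DTA-1. None of the 4 passed the test, and each 95% confidence interval included 0: the log2 fold changes were 0.16 for Shmt1, -0.02 for Shmt2, 0.01 for Mthfd1 and 0.05 for Mthfd2, and the groups overlapped in each.

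Cth, which makes cysteine from cystathionine, had the lowest level of the detected members. It read 0.537, 1.05 and 2.35 normalized counts under the isotype and 0.841, 3.24 and 1.57 under DTA-1, resting on at most 101 counts in a library. The groups overlapped and the interval, from -0.78 to 1.81 on the log2 scale, leaves its change undetermined with these libraries. With Cbs at 0 counts, little or no transcript of either step of the route from homocysteine to cysteine was measured in these cells.

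The rest of the pathway was followed with the same fit. Of 70 listed genes in 5 groups (mitochondrial synthetases, the remaining cytosolic subunits and scaffolds, eIF2 with its kinases and regulators, other genes linked to ATF4, and other folate and methionine cycle genes), 69 were tested, 35 were higher and 34 lower in DTA-1, and 0 were called. An unadjusted p under 0.05 was given to 4 of the 69 (5.8%), Sesn2, Mthfd1l, Eif2s3x and Cebpb, against 7.22% of all genes. Of the 17 mitochondrial synthetases 8 were higher and 9 lower, of the 6 cytosolic subunits and scaffolds 3 and 3, of the 15 eIF2 genes 9 and 6, of the 15 ATF4-linked genes 6 and 9, and of the 16 tested folate and methionine genes 9 and 7.

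The gene with the smallest unadjusted p in each of these lists is given by value. Sesn2, the leucine sensor that ATF4 is known to induce, read 162, 162 and 159.98 normalized counts under the isotype and 147, 135 and 149 under DTA-1, with a log2 fold change of -0.17 ± 0.0643 (SE, adjusted p = 0.653 in edgeR). All 3 of its DTA-1 libraries lay below the isotype control libraries. Mthfd1l, the mitochondrial enzyme that releases formate, read 57.7, 60.9 and 62.6 against 67.8, 68.7 and 72.5 normalized counts, with a log2 fold change of 0.21 ± 0.0776 (SE, adjusted p = 0.653 in edgeR). Eif2s3x, the X-linked gamma subunit of eIF2, read 54.9, 59.9 and 52.7 against 63.5, 66.9 and 61.1 normalized counts, with a log2 fold change of 0.19 ± 0.0847 (SE, adjusted p = 0.678 in edgeR). In both, every DTA-1 library was above every isotype control library without the difference passing the test. Lars2, the mitochondrial leucine enzyme, read 833, 685 and 706 against 728, 619 and 637 normalized counts, with a log2 fold change of -0.16. Farsb, the beta subunit of the phenylalanine enzyme, read 118, 124 and 112 against 123, 119 and 136 normalized counts, with a log2 fold change of 0.09. Without DTA-1 replicate 1 the smallest adjusted p of these 69 genes was 0.128, and 0 of them were called. Cebpb, a binding partner of ATF4 that the naming rule does not cover, read 79.5, 60.8 and 77.4 against 64.9, 54.6 and 59.7 normalized counts, with overlapping groups and a log2 fold change of -0.28 ± 0.112 (SE, adjusted p = 0.656 in edgeR).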

How the data were processed

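The 6 ILC2 RNA libraries (3 with DTA-1, 3 with isotype control, 10 ng RNA each) were sequenced by the study. The authors deposited 1 table of expected counts per gene on mm10 (GRCm38) in which reads shared between transcripts are divided, so values need not be whole and were not whole for 28 of the 34 members. The submitters' processing notes name bcl2fastq 2.17.1.14, STAR 2.5.3a and Partek; the annotation release and the strand setting are not given in the sources used here.

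The expected counts were rounded, filtered by filterByExpr and tested with edgeR 4.0.16 (R 4.3.3): trimmed mean of M-values, quasi-likelihood F test, Benjamini-Hochberg adjustment over 14361 genes. Genes were called at an adjusted p under 0.05 and 1.5-fold. Normalized counts are CPM scaled by TMM factors. DESeq2 1.42.0 and limma 3.58.1 served as alternatives, with other scalings, other filters, a replicate block and each library left out. Lengths are those of the principal messenger RNA in GENCODE release 21, whose gene starts matched the table for 48290 of 49721 shared symbols. Start and end matched for 29 of the 34 members but not for Atf4, Nars, Hars, Lars and Cbs. The lengths used for these may therefore differ from the gene models that were counted. The printed ends are 1 base below the deposited stop, which lay 1 base past the GENCODE end for 47741 of the shared symbols. On simulated counts for this comparison (14039 genes, 200 changed 2-fold) the fit recovered 87% with 1 false call. All simulated libraries were drawn with the same dispersion for a gene, so none stood apart as DTA-1 replicate 1 did. Changes smaller than 2-fold were not simulated, so the recovery does not speak for them.

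The members and lists were chosen with earlier results of these data known. Every member is named, and full statistics are given for members with groups that do not overlap and for the 8 members with the smallest unadjusted p. In the other pathway lists, the gene with the smallest p of each is named. The promoter sequence of 1 member with a match is not reported here.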

Additional observations from a re-analysis of the deposited data

How the results depend on the processing

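No member was called under any alternative (0 of 33 under each scaling, tool, filter, block and left-out library). Over all genes the main count of 0 became 25 with the DESeq2 Wald test, 2 with no filter on low counts, 337 with an unadjusted p under 0.05 in place of the adjusted one, and 0 to 111 with 1 library left out, the 111 without DTA-1 replicate 1. The members' median log2 fold change of 0.0161 became -0.0211 with total counts, a scaling under which 60.5% of all genes were lower, and ran from 0.0107 to 0.0557 with 1 library left out. The count of members with groups that did not overlap ran from 7 to 14 with 1 library left out, or 21.2% to 42.4% of members against 18.6% to 31.7% of all genes.

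Of 429 member values under alternatives, 387 kept their sign and 42 changed it, all of them in members near 0 or at low counts. Sign changes came with size factors for Aars (0.00251), Rars (0.000898), with the DESeq2 Wald test for Aars (0.00299), Rars (0.00143), with total counts for Hars (-0.00449), Mthfd1 (-0.0281), Psat1 (-0.0351), Sars (-0.0365), Yars (-0.0211), with no filter for Psat1 (-0.00103), Sars (-0.00164) and with at least 10 counts in every library for Sars (-0.000788), as log2 fold changes. With 1 library left out the log2 fold changes ran through 0 for Aars (-0.04 to 0.0557), Atf4 (-0.0729 to 0.00298), Atf5 (-0.34 to 0.0526), Cars (-0.0786 to 0.0107), Cth (-0.12 to 1.24), Eprs (-0.0447 to 0.00409), Hars (-0.00249 to 0.0856), Mthfd1 (-0.071 to 0.13), Psat1 (-0.0252 to 0.0319), Rars (-0.0628 to 0.0741), Sars (-0.0461 to 0.0295), Shmt2 (-0.0658 to 0.0228), Tars (-0.0404 to 0.0588) and Yars (-0.0169 to 0.0427).

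Same-numbered libraries of both groups did not deviate together (r = -0.0069, -0.00285 and 0.0152 over genes). The labels do not say whether they share a mouse or culture. These correlations cannot settle it, since each rests on deviations from means of 3 libraries. With the replicate block 1 gene was called over all genes, 0 members were called and 2 members, Ddit3 and Trib3, had an unadjusted p under 0.05 (6.06%, against 7.25% of all genes). Among the detected members Cth and Atf5 had the fewest counts, and theirs were the intervals of the main fit that reached past 1.5-fold. Leaving out DTA-1 replicate 1 moved Ddit3 from -0.26 to -0.44 and Trib3 from -0.20 to -0.35 on the log2 scale, and leaving out DTA-1 replicate 2 moved them to -0.14 and -0.08.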
